A study of Mus musculus with 21 samples.

Results

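The genes described here are 10 cytochrome P450 genes of families 3 and 4 that the liver expresses, 3 of the Cyp3a subfamily (Cyp3a11, Cyp3a13 and Cyp3a25), 5 of the Cyp4a subfamily (Cyp4a10, Cyp4a12a, Cyp4a12b, Cyp4a14 and Cyp4a31), Cyp4f14 and Cyp4v3. They were matched by gene name, and all 10 were found once in each of 3 deposited tables, which list 54532 genes (CCl4 and hepatocyte tables) or 34280 genes (TAA table). The study asks how the adaptor STING and the inflammasome sensor NLRP3 act in fibrotic mouse liver, and its 21 RNA-seq libraries form 7 groups of 3. In the CCl4 table, livers came from wild-type mice injected intraperitoneally with oil, from wild-type mice injected with carbon tetrachloride (CCl4, a hepatotoxin that P450 enzymes activate) and from CCl4-injected mice labelled Sting knock out; the labels give 6 weeks and the design text gives 8 weeks. In the TAA table, livers came from wild-type mice and from mice with a hepatocyte-specific deletion of Nlrp3 (labelled Nlrp3△Hep), all after 8 weeks of intraperitoneal thioacetamide (TAA, another hepatotoxin), so no group of that table was free of TAA. In the hepatocyte table, primary hepatocytes of wild-type mice received lipopolysaccharide (LPS) at 1 µg/mL for 6 h and the ionophore nigericin at 10 µM for 30 min, and 3 of the 6 libraries had first received the NLRP3 inhibitor MCC950 at 10 µM for 2 h, so all of these cells were stimulated. Strain, age and the Cre line behind the deletion are not given in the sources used here, nor is it stated that libraries of a group came from separate mice or cultures. The p-values therefore set differences against the spread between these libraries only. In the CCl4 table that spread was estimated over all 3 groups together, also for a comparison of 2 of them.

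Cytochrome P450 enzymes are haem proteins of the endoplasmic reticulum that oxidise their substrates with electrons passed on by the reductase encoded by Por. Family 3 enzymes oxidise many drugs and steroids, and Cyp3a11, an abundant form in mouse liver, is a standard target of the xenobiotic receptors PXR (Nr1i2) and CAR (Nr1i3). Family 4 enzymes hydroxylate fatty acids and eicosanoids at the omega end. Cyp4a10 and Cyp4a14 are classical targets of the fatty acid receptor PPAR-alpha (Ppara), while Cyp4a12a and Cyp4a12b are higher in male than in female mouse liver and depend on androgen and growth hormone signals. Cyp4f14 belongs to a subfamily that inactivates leukotriene B4, and Cyp4v3 is the mouse counterpart of human CYP4V2.

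On mm10, the 5 Cyp4a genes lie on chromosome 4 between 115299046 (the start of Cyp4a12a) and 115579015 (the end of Cyp4a31). Cyp3a11 (145854426 to 145879964), Cyp3a25 (145977194 to 146009618) and Cyp3a13 (137892932 to 137921619) lie on chromosome 5, Cyp4f14 (32905071 to 32917342) on chromosome 17 and Cyp4v3 (45304944 to 45333216) on chromosome 8. The Cyp4a cluster contains near-identical copies, which bears on the values of those copies because reads from shared stretches can be assigned to either one. In the GENCODE coding sequences, Cyp4a12a and Cyp4a12b differed at 23 of 1527 bases (98.5% identical, longest identical run 342 bases). Cyp4a10 and Cyp4a31 differed at 52 of 1530 bases (96.6% identical), and Cyp4a32, a further copy outside the 10, was 97.2% identical to Cyp4a10. Cyp4a14 is more distant (76.8% identical to Cyp4a10), and the 3 Cyp3a members were 76.1% to 76.6% identical to each other, although Cyp3a41a was 95.2% identical to Cyp3a11. The stretch of 90 coding bases with the most differences is shown for each set of copies, since only such positions tell their reads apart; capitals mark the positions that differ, counted from the first coding base. For the Cyp4a12 pair this stretch covered coding bases 661 to 750, with 7 differing positions.
Cyp4a12a: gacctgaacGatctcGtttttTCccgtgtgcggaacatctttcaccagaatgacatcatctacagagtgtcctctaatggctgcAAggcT
Cyp4a12b: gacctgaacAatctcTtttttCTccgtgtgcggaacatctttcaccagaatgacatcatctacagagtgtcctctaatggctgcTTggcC
For the 3 copies around Cyp4a10 it covered coding bases 190 to 279, with 13 differing positions.
Cyp4a10: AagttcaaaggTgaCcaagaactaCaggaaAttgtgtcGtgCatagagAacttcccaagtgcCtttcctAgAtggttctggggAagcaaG
Cyp4a31: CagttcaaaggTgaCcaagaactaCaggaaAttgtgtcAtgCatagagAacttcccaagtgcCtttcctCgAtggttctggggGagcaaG
Cyp4a32: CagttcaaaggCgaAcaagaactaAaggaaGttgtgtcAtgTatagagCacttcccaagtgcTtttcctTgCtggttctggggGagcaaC

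The RefSeq promoter table (GRCm38.p6) matched 5 of the 10 genes; Cyp4a10, Cyp4a12a, Cyp4a12b, Cyp4a14 and Cyp4a31 were not matched. The windows of Cyp3a11 and Cyp3a25 are shown because these neighbouring genes, whose coding sequences are 76.1% identical, had differences of opposite sign between the TAA genotypes. Each covers the 250 bases before the start in the RefSeq table on the minus strand (for Cyp3a11 this start lies inside the gene bounds given above), chr5:145879855-145880104 for Cyp3a11 and chr5:146009619-146009868 for Cyp3a25, and capitals mark the hexamers AGGTCA and AGTTCA, the half-sites of nuclear receptors, on either strand (TGACCT and TGAACT where the match is on the opposite strand).
Cyp3a11: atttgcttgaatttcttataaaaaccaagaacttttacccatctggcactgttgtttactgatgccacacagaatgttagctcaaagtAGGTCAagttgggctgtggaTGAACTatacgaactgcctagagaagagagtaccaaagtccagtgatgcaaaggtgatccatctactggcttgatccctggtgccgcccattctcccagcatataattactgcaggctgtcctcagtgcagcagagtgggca
Cyp3a25: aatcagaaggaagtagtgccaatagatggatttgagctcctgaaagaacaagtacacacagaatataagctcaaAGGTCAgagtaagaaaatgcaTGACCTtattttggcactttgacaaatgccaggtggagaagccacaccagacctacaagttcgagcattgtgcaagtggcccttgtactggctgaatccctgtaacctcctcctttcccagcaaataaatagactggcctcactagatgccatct
The Cyp3a11 window held 1 AGGTCA (162 to 157 bases before that start) and, on the opposite strand, 1 AGTTCA (142 to 137 bases before). The Cyp3a25 window held 2 AGGTCA, on opposite strands, at 176 to 171 and 155 to 150 bases before the start. Among 32851 promoter windows of the same length, 14.0% held AGGTCA and 11.8% held AGTTCA. These matches describe the letters only.

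Depth and library checks apply to all results. Reads assigned to genes numbered 14353483 to 16684832 per library in the CCl4 table and 14883710 to 17157586 in the hepatocyte table, both recovered from the deposited values, and 32096879 to 68913793 in the TAA table. In the CCl4 table Sting1, the targeted gene, listed under its older symbol Tmem173, was at 6.10, 5.15 and 4.74 FPKM (reads scaled to gene length and library size) in the wild-type CCl4 libraries and at 3.42, 1.98 and 5.28 FPKM in those labelled Sting knockout, so the targeted RNA was not absent and the latter are called by their label throughout. Nlrp3 was at 0.08, 0.37 and 0.25 FPKM in the libraries labelled as its hepatocyte deletion (23, 105 and 83 counts) and at 0.15, 0.11 and 0.17 FPKM in wild type (36, 24 and 28 counts). Deleted replicate 1 lay below wild type and the other 2 above, in whole liver, where other cell types carry the intact gene. Wild-type CCl4 replicate 3 held Xist at 79.9 FPKM and the Y-linked Ddx3y at 0.0414 FPKM, whereas every other library of that table held Xist at 0.0129 FPKM or less and Ddx3y at 8.76 FPKM or more. The labels give no sex. Because Cyp4a12a and Cyp4a12b are male-biased genes, their test results against oil are given with and without that library.

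**Figure D1:**
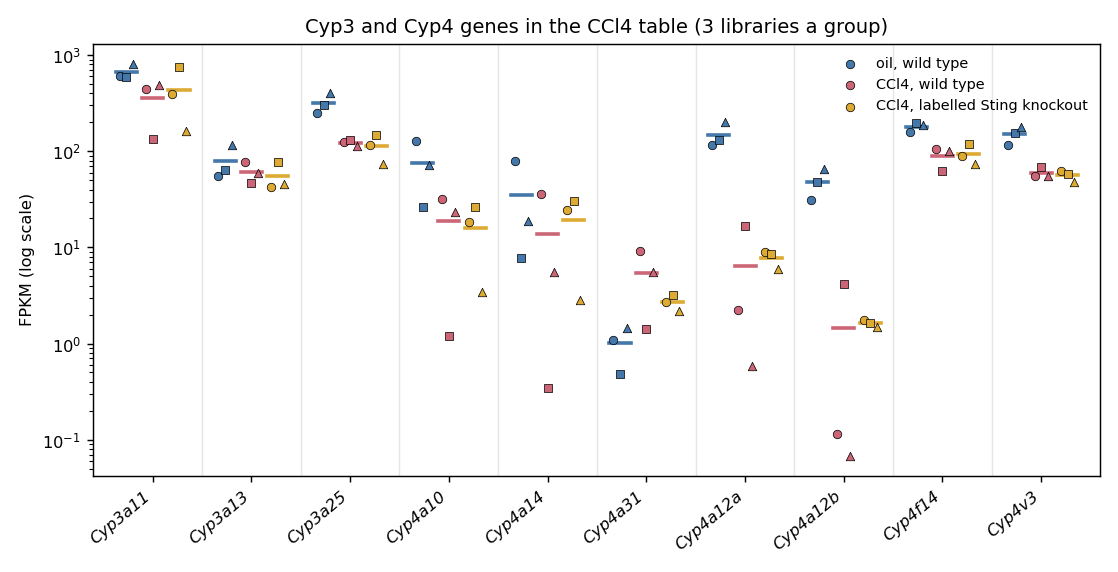
FPKM of the 10 genes in the CCl4 table on a log axis; points are libraries (circle, square and triangle are replicates 1, 2 and 3), bars are group means, and colours are the 3 groups. Cyp4a12a and Cyp4a12b fell farthest from oil to CCl4, Cyp4a31 was the only member with a higher mean after CCl4 than after oil, and wild-type CCl4 replicate 2 lies lowest for Cyp4a10, Cyp4a14 and Cyp3a11.

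In oil-treated liver the members spanned a wide range of levels. Cyp3a11 was the highest, at 672 ± 125 FPKM (SD, n = 3), and took 39.3% of the summed FPKM of the 10 genes, followed by Cyp3a25 at 320.1 ± 78.1 FPKM, whose libraries did not overlap those of Cyp3a11. Next came Cyp4f14 (181 ± 19.1 FPKM), Cyp4v3 (149.9 ± 31.6), Cyp4a12a (149.0 ± 45.7), Cyp3a13 (78.9 ± 33.8), Cyp4a10 (75.4 ± 50.6), Cyp4a12b (48.1 ± 17.3) and Cyp4a14 (34.9 ± 38.0), and each of these overlapped its neighbour in that order. Cyp4a31 was last at 1.01 ± 0.49 FPKM and overlapped none of them.

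CCl4 was compared with oil in wild-type mice to describe what the toxin does to these genes. At an adjusted p under 0.05 (limma on log2(FPKM + 1), Benjamini-Hochberg over 11511 genes), 5 of the 10 fell, namely Cyp4a12a, Cyp4a12b, Cyp3a25, Cyp4v3 and Cyp4f14, where 6.15% of all genes tested were lower. Cyp4a31 rose, 1 of 10, where 9.19% of all genes were higher. Among the other 4, Cyp3a11, Cyp3a13, Cyp4a10 and Cyp4a14, no difference passed the test. In 6 of the 10 every CCl4 library lay below every oil library, against 21.4% of all genes, and in 0 did every CCl4 library lie above, against 16.6%. In whole liver, fewer cells of a type and less RNA per cell cannot be told apart. The adjusted p of Cyp4f14 (0.0452) and of Cyp4a31 (0.045) was close to the threshold (limma).

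Of the Cyp3a genes, Cyp3a25 fell. It stood at 249.8, 306 and 404 FPKM after oil and at 124, 131 and 112 FPKM after CCl4. The CCl4 libraries were close together and all lay below the oil libraries. The log2 change was −1.35 ± 0.33 (SE; 95% interval −2.07 to −0.63, adjusted p = 0.0192, limma), a 2.55-fold fall on the log2(FPKM + 1) scale. Without oil replicate 2 or oil replicate 3 the adjusted p of Cyp3a25 was 0.0695 and 0.0835.

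Cyp3a11, the PXR target, measured 604, 597 and 816 FPKM after oil and 444, 134 and 490 FPKM after CCl4. The groups did not overlap, but replicate 2 after CCl4 was far below the other 2, and the log2 difference of −1.11 had an interval that included 0 (−2.44 to 0.22, adjusted p = 0.265, limma). Cyp3a13, a form also expressed outside the liver, was at 54.7, 64.6 and 118 FPKM after oil and 76.8, 46.6 and 59.9 FPKM after CCl4, with overlapping groups (log2 difference −0.31, interval −1.12 to 0.49, adjusted p = 0.646, limma).

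The male-biased pair Cyp4a12a and Cyp4a12b fell most among the members. Cyp4a12a was at 115, 131 and 201 FPKM after oil and at 2.23, 16.6 and 0.577 FPKM after CCl4. Cyp4a12b was at 31, 47.8 and 65.6 FPKM after oil and at 0.115, 4.18 and 0.0674 FPKM after CCl4. All CCl4 libraries lay far below all oil libraries, with replicate 2 the highest and replicate 3, the library with Xist, the lowest. The log2 changes were −5.03 ± 0.69 for Cyp4a12a (adjusted p = 0.00109, limma) and −4.68 ± 0.52 for Cyp4a12b (adjusted p = 0.000407, limma), and 0.0869% and 0.0956% of genes tested had a lower value. Without CCl4 replicate 3 they were −4.27 (adjusted p = 0.00246, limma) and −4.29 (adjusted p = 0.00177, limma), so the fall was also present in the 2 CCl4 libraries with Y-linked RNA. Without CCl4 replicate 2 they were −6.01 and −5.43.

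The 2 copies were also summed, since a sum is less open to how shared reads were split between them. Together Cyp4a12a and Cyp4a12b gave 146, 179 and 267 FPKM after oil and 2.34, 20.8 and 0.645 FPKM after CCl4. Their means were 197 ± 62.3 and 7.91 ± 11.2 FPKM (SD, n = 3), a 24.9-fold difference (exact two-sided permutation p = 0.1, the smallest that 3 against 3 allows). The ratio was 17.1-fold without CCl4 replicate 3 and 132-fold without CCl4 replicate 2, the highest of the 3. Cyp4a12a made up 73.2% to 78.8% of the pair's FPKM after oil and 79.9% to 95.1% after CCl4 (89.6% in replicate 3). At 5 and 3 reads for Cyp4a12b in CCl4 replicates 1 and 3, that share rests on few reads.

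The PPAR-alpha targets Cyp4a10 and Cyp4a14 varied widely inside each group. Cyp4a10 was at 127, 26.3 and 72.5 FPKM after oil and 31.7, 1.19 and 23.1 FPKM after CCl4. Cyp4a14 was at 78.3, 7.67 and 18.6 FPKM after oil and 35.9, 0.343 and 5.52 FPKM after CCl4. In both genes replicate 1 was the highest and replicate 2 the lowest of each group, and the groups overlapped. Their log2 differences of −2.41 (interval −4.64 to −0.18, adjusted p = 0.143, limma) and −1.79 (interval −4.44 to 0.86, adjusted p = 0.373, limma) did not pass the test.

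Cyp4a31 moved the other way. It was at 1.10, 0.487 and 1.46 FPKM after oil (16 to 42 reads per library) and at 9.28, 1.42 and 5.59 FPKM after CCl4 (68 to 423 reads). CCl4 replicates 1 and 3 were above all oil libraries, and replicate 2 lay inside their range. The log2 change was 1.47 ± 0.44 (interval 0.51 to 2.44, adjusted p = 0.045, limma). The call was lost in 8 of 9 fits that left out 1 library, including the 3 labelled Sting knockout, with adjusted p from 0.0517 to 0.154 where it was lost. Of the FPKM of Cyp4a10 and Cyp4a31 together, Cyp4a31 made up 0.856% to 1.97% after oil and 19.5% to 54.4% after CCl4, with no overlap. This share also grows where Cyp4a10 is lower. The 54.4% came from replicate 2, where Cyp4a10 was at 1.19 FPKM (48 reads) and Cyp4a31 lay inside the oil range. The sum of Cyp4a10, Cyp4a31 and Cyp4a32 was 86.1 ± 52.3 FPKM after oil and 28.5 ± 20.5 FPKM after CCl4 (exact two-sided permutation p = 0.2).

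**Figure D2:**
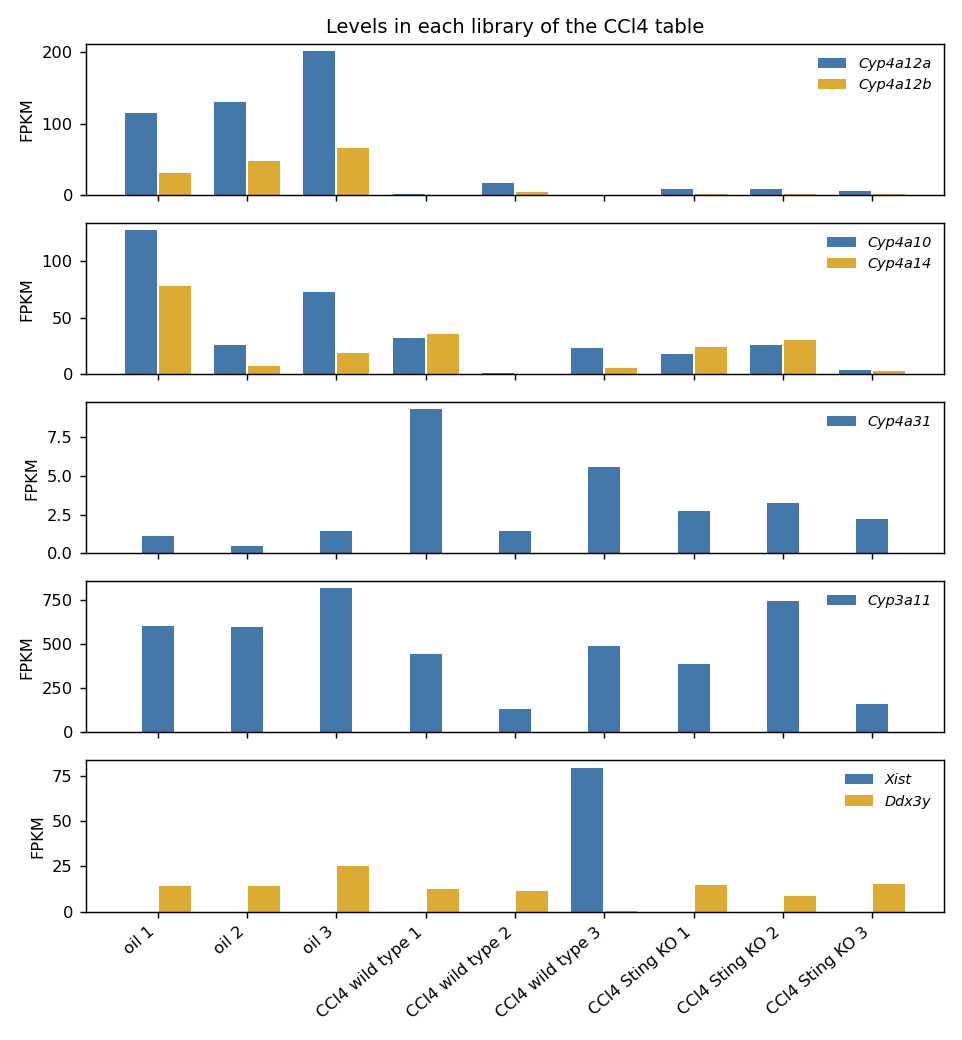
FPKM in each of the 9 libraries of the CCl4 table for the Cyp4a12 pair, Cyp4a10 with Cyp4a14, Cyp4a31, Cyp3a11, and Xist with Ddx3y; bars are single libraries and each panel has its own axis from 0. The Cyp4a12 pair is low in all 6 CCl4 libraries, Cyp4a10 and Cyp4a14 rise and dip together from library to library, and Xist is high in wild-type CCl4 replicate 3 alone.

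Cyp4v3 and Cyp4f14 fell by smaller amounts than the Cyp4a12 pair. Cyp4v3 was at 117, 154 and 179 FPKM after oil and 55.4, 67.9 and 55.3 FPKM after CCl4, a log2 change of −1.30 ± 0.27 (interval −1.89 to −0.71, adjusted p = 0.00883, limma). The groups were well apart, and the call held in all 9 fits that left out 1 library. Cyp4f14 was at 159, 195 and 188 FPKM after oil and 106, 61.9 and 100.2 FPKM after CCl4, again without overlap, with a log2 change of −1.04 ± 0.31 (interval −1.72 to −0.36, adjusted p = 0.0452, limma). Its call was lost with the replicate number as a block (adjusted p = 0.0522, limma) and in 7 of 9 fits that left out 1 library (up to 0.162).

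Across the 9 libraries of the CCl4 table, members differed in how they varied within groups. After removing group means, log2(FPKM + 1) of Cyp4a10 correlated with that of Cyp4a14 (Pearson r = 0.93) and of Cyp3a11 (r = 0.87), and Cyp4a12a with Cyp4a12b (r = 0.94), whereas Cyp4a12a correlated with Cyp4a10 at r = −0.61. These values describe 9 libraries whose FPKM scale differs, which all genes of a library share. Wild-type CCl4 replicate 2 contributes to that negative value, with the lowest Cyp4a10 and Cyp4a14 of the table and the highest Cyp4a12a among CCl4 libraries. The libraries labelled Sting knockout did not show it, since replicate 3 was their lowest in both Cyp4a12a (5.96 FPKM) and Cyp4a10 (3.43 FPKM). Nor did all members fall on 1 side, as Cyp3a25 correlated positively with both Cyp4a12a (r = 0.40) and Cyp3a11 (r = 0.56). The genes most like Cyp3a11 over all 9 libraries were Sult1a1 (r = 0.963), Fmo1 (0.943) and Nqo2 (0.940), those most like Cyp4a14 were Nkx2-6 (0.920), Cyb561d1 (0.898) and Tnfrsf19 (0.886), and those most like Cyp4f14 were Apol7a (0.981), Aqp11 (0.976) and Ces1g (0.971).

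Of 19 other genes of the 2 families, 9 reached a mean of 1 FPKM in the CCl4 table, and 2 rose and 4 fell from oil to CCl4. Cyp4f16 rose from 0.936 ± 0.079 to 5.09 ± 1.13 FPKM (adjusted p = 0.000536, limma) and Cyp4f18, a form expressed in myeloid cells, from 0.482 ± 0.291 to 4.29 ± 1.74 FPKM (adjusted p = 0.00172, limma). Cyp4f15 fell from 64.6 ± 6.7 to 29.6 ± 6.5 FPKM (adjusted p = 0.0181, limma), and Cyp4f13, Cyp4f17 and Cyp4b1 also fell. Without CCl4 replicate 3, the library with Xist, 2 were called higher and 1 lower of 8 tested. The Cyp4f subfamily thus held members that rose and members that fell. Cyp3a44, a female-biased form, was at 9.62 FPKM in CCl4 replicate 3 and at 1.57 FPKM or less elsewhere in the table, and did not pass the test (adjusted p = 0.139, limma).

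The regulators and partners of these enzymes were examined beside them. Por was at 44.0 ± 3.1 FPKM after oil and at 98.5, 42.7 and 22.7 FPKM after CCl4. Of 4 electron donors only Cyb5b was called lower by limma (log2 change −1.21, adjusted p = 0.0173). At an unadjusted p under 0.05 (limma) 3 of the 4 were lower, and edgeR on recovered reads called 2 lower. Of 8 nuclear receptors Nr1i3 (log2 change −0.94, adjusted p = 0.0274) and Nr1h4 (−1.15, adjusted p = 0.0487, limma) fell. edgeR on recovered reads also called 2 of the 8 lower, but without CCl4 replicate 3, the library with Xist, limma called 0. Ppara went from 29.9 ± 4.3 to 13.5 ± 0.5 FPKM without passing the test (adjusted p = 0.107, limma), and Nr1i2 was at 25.8 ± 2.7 and 15.1 ± 5.5 FPKM (adjusted p = 0.132, limma). Of 16 PPAR-alpha target genes other than Cyp4a genes, 8 fell and 0 rose, with a median log2 difference of −1.15 against −0.08 over all genes. Among them, Acsl1, which activates fatty acids, went from 116 ± 14.7 to 35.9 ± 6.2 FPKM (adjusted p = 0.00147, limma). Of 10 PXR and CAR targets 3 fell, among them Ugt1a1 (log2 change −1.85, adjusted p = 0.0108) and Abcc3 (−1.40, adjusted p = 0.0121, limma), and 0 rose. Of 9 tested genes of the growth hormone axis and male-biased expression 7 fell, such as the transporter Slco1a1 (log2 change −3.41, adjusted p = 0.00112) and the steroid enzyme Hsd3b5 (−6.08, adjusted p = 0.00358, limma). edgeR on recovered reads called 5 of them lower, and without CCl4 replicate 3 limma called 6. The list summed to 3254 to 4873 FPKM after oil and to 454, 2202 and 270.3 FPKM after CCl4, lowest in the library with Xist. Of 3 tested female-biased genes 1, Cyp17a1, rose (log2 change 2.12, adjusted p = 0.00416, limma), and edgeR on recovered reads called 3 higher.

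Markers of hepatocyte zones and of other cells moved with these changes. Of 8 tested pericentral hepatocyte genes 6 fell, and the summed FPKM of the list of 10 was 4158 to 6188 after oil and 452 to 1071 after CCl4. Of 10 periportal genes 4 fell (median log2 difference −0.97), with sums of 4027 to 4186 and 1980 to 3056. Of 9 general hepatocyte genes such as Alb 0 were called (limma; 1, Serpina1c, had an unadjusted p under 0.05 and was lower, and edgeR on recovered reads called 1 lower), with summed FPKM of 52841 to 71320 and 48313 to 59485. Of 9 tested macrophage and leukocyte genes 6 rose (summed FPKM of the list of 10, 359.7 to 517 and 1126 to 2199.5), and of 8 stellate cell and myofibroblast genes 6 rose (44.3 to 56.5 and 173 to 379). Without CCl4 replicate 3, the library with Xist, limma called 6 pericentral, 2 periportal and 0 general hepatocyte genes lower. In that fit 4 macrophage and leukocyte genes and 5 stellate cell and myofibroblast genes were higher. None of these lists' genes was at 0 in all libraries of a group. The part of such shifts in the members' values was not tested.

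The scale of the deposited FPKM differed between groups, since FPKM times gene length summed to more per library after oil than after CCl4. Rescaling every library to an equal sum moved the median log2 difference of all genes from −0.08 to 0.29. Under it Cyp3a13 was at 0.14 in place of −0.31, Cyp4f14 lost its call (log2 difference −0.58, adjusted p = 0.15, limma), and Cyp4a12a, Cyp4a12b, Cyp3a25 and Cyp4v3 remained lower and called.

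**Figure D3:**
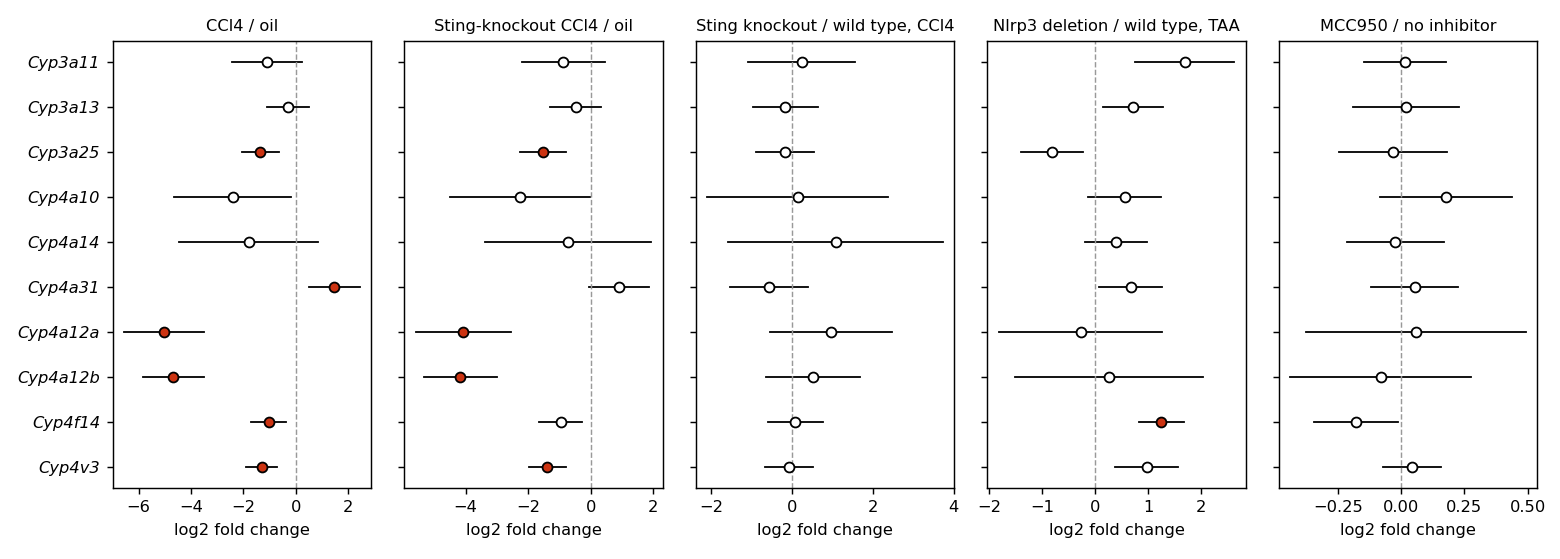
Log2 fold change of each of the 10 genes in the 5 comparisons, with 95% intervals; filled points have an adjusted p under 0.05, and each panel has its own horizontal axis (limma on log2(FPKM + 1), except edgeR on counts for the Nlrp3 panel). Filled points number 6 for CCl4 against oil, 4 for the libraries labelled Sting knockout against oil, 0 for those libraries against wild type, 1 for the Nlrp3 deletion and 0 for MCC950, whose axis is the narrowest.

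The libraries labelled Sting knockout were compared with wild type under CCl4, where 0 of the 10 genes were called, as were 0% of 11511 genes higher and 0% lower (limma; 366 genes had an unadjusted p under 0.05, 0 of them members, and edgeR on recovered reads also called 0). No member separated the groups, against 2.35% of genes all higher and 2.78% all lower. The intervals were wide where replicates spread. Cyp3a11 was at 390, 746 and 164 FPKM in the libraries labelled knockout (log2 difference 0.23, interval −1.09 to 1.56), so a difference of 2-fold in either direction lies inside it. Cyp4a14 was at 24.4, 30.1 and 2.82 FPKM (log2 difference 1.07, −1.57 to 3.72) and Cyp4a10 at 18.2, 26.1 and 3.43 FPKM (0.14, −2.09 to 2.37), with knockout-labelled replicate 3 the lowest in all 3 genes. Cyp4a12a was at 8.90, 8.55 and 5.96 FPKM, closely grouped inside the wild-type range, with a log2 difference of 0.96 that was 0.21 without wild-type CCl4 replicate 3, the library with Xist. For Cyp4a12b the difference was 0.52, and 0.13 without that library. The intervals were narrower for Cyp4v3 (log2 difference −0.09, −0.68 to 0.51), Cyp4f14 (0.08, −0.60 to 0.76) and Cyp3a25 (−0.18, −0.90 to 0.54).

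Set against the same oil libraries, the libraries labelled Sting knockout had 4 members lower and 0 higher, where 5.91% of genes were lower and 8% higher. This comparison shares its oil libraries with the one above, so the values are given side by side only. Log2 differences from oil were −4.07 for Cyp4a12a (adjusted p = 0.00369, limma; −5.03 in wild type), −4.16 for Cyp4a12b (0.000757; −4.68 in wild type), −1.53 for Cyp3a25 (0.0117; −1.35 in wild type) and −1.39 for Cyp4v3 (0.00713; −1.30 in wild type). Cyp4f14 (log2 difference −0.96, adjusted p = 0.064, limma) and Cyp4a31 (0.90, adjusted p = 0.207, limma) were not called here. The 3 libraries for Cyp4a31, at 2.70, 3.23 and 2.18 FPKM, all lay above the oil libraries, and its share of Cyp4a10 and Cyp4a31 together was 11.0% to 38.9%. Without oil replicate 3 the adjusted p of Cyp3a25 was 0.061 (limma).

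The Nlrp3 comparison in TAA-treated liver asks what deletion in hepatocytes changes. Cyp4f14 rose, the only member called at an adjusted p under 0.05 (edgeR's quasi-likelihood test on counts, 18619 genes), where 1.37% of genes were higher, and 0 members were called lower, where 0.36% of genes were. At an unadjusted p under 0.05 there were 5 members higher and 1 lower, against 16.2% and 12.6% of all genes. DESeq2 called 3 higher and 1 lower, against 8.38% and 7.05% of the genes to which it gave an adjusted p. The lower one was Cyp3a25. In CPM (counts scaled to library size and TMM factors), 4 of 10 members were higher in every Nlrp3-deleted library, against 17.5% of genes, and 1 of 10 lower in every one, against 18.7%.

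**Figure D4:**
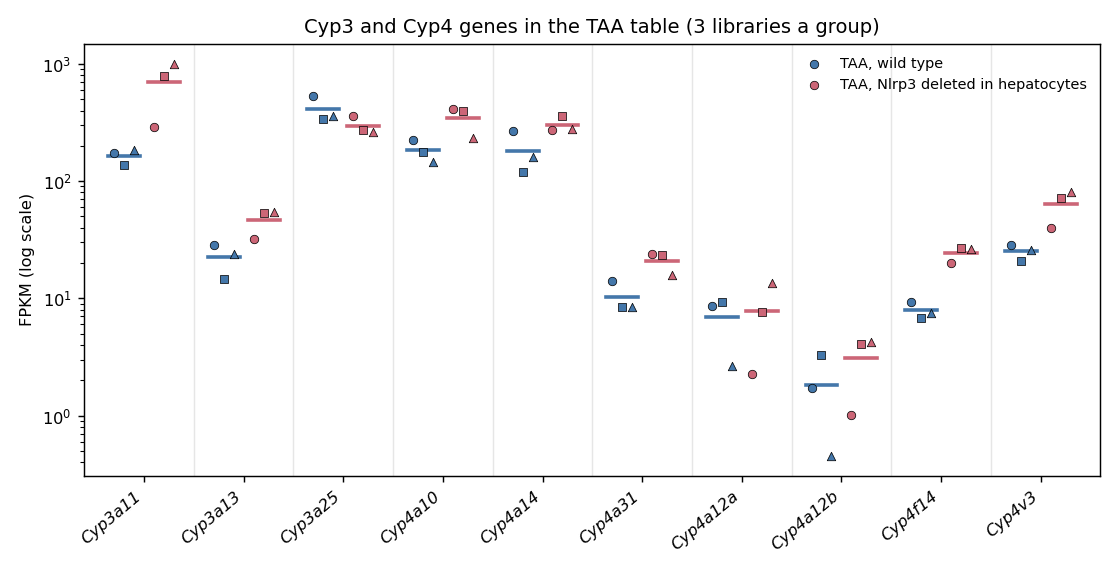
FPKM of the 10 genes in the TAA table on a log axis; points are libraries (circle, square and triangle are replicates 1, 2 and 3), bars are group means, and colours are the 2 genotypes. Cyp3a11 and Cyp4f14 lie higher in the Nlrp3-deleted libraries, Cyp3a25 has the lower mean there, and Nlrp3-deleted replicate 1 lies nearest the wild-type libraries for Cyp3a11, Cyp3a13 and Cyp4v3.

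Cyp4f14, of the leukotriene-inactivating subfamily, was at 27.8, 27.8 and 23.6 CPM in wild type and 55.0, 65.9 and 67.5 CPM with Nlrp3 deleted. All deleted libraries lay above all wild-type libraries, with a log2 change of 1.25 ± 0.18 (95% interval 0.82 to 1.67, adjusted p = 0.0487, edgeR). The call was lost with RLE factors (adjusted p = 0.0506) and in 5 of 6 fits without 1 library (up to 0.196, edgeR), while the log2 value stayed between 1.18 and 1.35. Without Nlrp3-deleted replicate 1 the adjusted p was 0.000792 (edgeR).

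Cyp3a11 was at 1086, 1169 and 1224 CPM in wild type and 1701, 4076 and 5437 CPM with Nlrp3 deleted. Replicate 1 lay nearest to wild type, and the log2 difference of 1.69 ± 0.40 (interval 0.76 to 2.62) missed the threshold (adjusted p = 0.057, edgeR). Cyp3a25 was at 1371, 1177 and 966 CPM in wild type and 851, 571 and 576 CPM with Nlrp3 deleted, below all wild-type libraries (log2 difference −0.81 ± 0.25, interval −1.40 to −0.23, adjusted p = 0.0896, edgeR). The ratio of Cyp3a25 to Cyp3a11 in FPKM, which no scaling of a library can change, was 3.09, 2.46 and 1.93 in wild type and 1.22, 0.342 and 0.259 with Nlrp3 deleted, with no overlap. In wild-type TAA liver Cyp3a25 had the highest mean FPKM of the 10 (409 ± 108). Cyp3a11 was the fourth by mean there (165 ± 25.1) and overlapped Cyp4a14, the third. With Nlrp3 deleted Cyp3a11 had the highest mean (695 ± 365). In deleted replicate 1, however, it was at 292 FPKM, below Cyp4a10 (410 FPKM) and Cyp3a25 (357 FPKM). Cyp3a13 (104, 72.8 and 91.5 CPM against 107, 160.4 and 172 CPM) had a log2 difference of 0.71 (adjusted p = 0.111, edgeR).

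Cyp4v3 was at 135, 133 and 129 CPM in wild type and 173, 278 and 326 CPM with Nlrp3 deleted, without overlap (log2 difference 0.97 ± 0.26, adjusted p = 0.0666, edgeR). The Cyp4a genes overlapped between genotypes in CPM. Cyp4a10 was at 590, 629 and 396 CPM and 989, 854 and 527 CPM (log2 difference 0.55, interval −0.14 to 1.25), and Cyp4a14 at 855, 525 and 539 CPM and 807, 941 and 765 CPM (0.39, −0.20 to 0.98). Cyp4a31 was at 43.2, 35.7 and 27.3 CPM and 68.3, 59.1 and 41.9 CPM (0.67, 0.08 to 1.27, adjusted p = 0.136, edgeR). Its share of Cyp4a10 and Cyp4a31 together was 4.56% to 5.80% in wild type and 5.49% to 6.26% with Nlrp3 deleted. The pair Cyp4a12a and Cyp4a12b was low in both groups, at 3.07 to 12.6 FPKM summed in wild type and 3.27 to 17.7 FPKM with Nlrp3 deleted (exact two-sided permutation p = 0.7).

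How many genes were called depended on single libraries. Without Nlrp3-deleted replicate 1, 3570 genes were higher and 3985 lower (17.9% and 20% of 19889 genes, edgeR). In that fit 5 members were called: Cyp3a11 (log2 change 2.04, adjusted p = 0.000533), Cyp4v3 (1.20, 0.00116), Cyp4f14 (1.34, 0.000792) and Cyp3a13 (0.90, 0.00711) higher and Cyp3a25 (−1.03, 0.00607) lower. Leaving out any other single library gave 0 to 6 higher genes, 0 to 10 lower genes and 0 members called (edgeR). On FPKM, where the median log2 difference of all genes was 0.33 in place of −0.04, limma called 5 members higher and 0 lower, against 21.7% and 1.93% of 11165 genes, and 7 of 10 were higher in every deleted library, against 39.3% of all genes.

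Several quantities moved with genotype beside these genes. Their FPKM values carry the shift given above, a median log2 difference of 0.33 over all genes on FPKM. Of 9 general hepatocyte genes 3 rose (8 had an unadjusted p under 0.05, higher, and DESeq2 called 7 higher), and their summed FPKM was 11124 to 12182 in wild type and 30616 to 40004 with Nlrp3 deleted. Summed FPKM was also higher for periportal genes (556 to 823 against 1578 to 3494; 2 of 10 rose), pericentral genes (672 to 874 against 1573 to 2524; 0 of 10 called by edgeR, 3 higher and 4 lower at an unadjusted p under 0.05, 3 higher and 1 lower by DESeq2) and macrophage and leukocyte genes (145 to 182 against 204 to 549.97; 0 of 10 called by edgeR, 5 higher at an unadjusted p under 0.05, 3 higher by DESeq2). Mitochondrially encoded genes took 27.8% to 34.7% of counts in wild type and 5.63% to 12.5% with Nlrp3 deleted. Por was at 57.0 ± 11.0 and 164 ± 37.7 FPKM, with a log2 change of 1.15 and an adjusted p that rounds to 0.05 (edgeR). Of 4 electron donors it alone was called by edgeR, at the very edge of the threshold. All 4 had an unadjusted p under 0.05, higher, and DESeq2 called all 4 higher. Ppara was at 1.74, 1.95 and 1.88 FPKM in wild type and 2.59, 9.66 and 14.5 FPKM with Nlrp3 deleted (adjusted p = 0.0772, edgeR). Of 16 PPAR-alpha targets and 10 PXR and CAR targets 0 were called (edgeR; 9 and 5 had an unadjusted p under 0.05, all higher, and DESeq2 called 8 and 5 higher), with median log2 differences of 0.65 and 0.81 against −0.04 over all genes. The part of these quantities in the members' values was not tested.

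In cultured hepatocytes stimulated with LPS and nigericin, MCC950 was compared with no inhibitor, and 0 of the 10 genes were called (limma, 9835 genes, of which 0% were called higher and 0% lower; 1168 had an unadjusted p under 0.05, 1 of them a member, and edgeR on recovered reads also called 0). Nlrp3, whose protein MCC950 inhibits, had 0 to 4 reads in each of these 6 libraries. Replicates were close, and the intervals were narrow. Cyp3a11 was at 85.4, 76.5 and 81.2 FPKM without and 82.9, 76.0 and 86.7 FPKM with MCC950, a log2 difference of 0.01 (interval −0.15 to 0.18). Cyp4a14 was at 71.2, 58.0 and 61.0 FPKM and 63.4, 60.2 and 62.7 FPKM (−0.02, −0.22 to 0.17). Across the 10 genes, the interval reached farthest for Cyp4a12a (−0.38 to 0.49).

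Cyp4f14 was the only member without overlap in hepatocytes, at 42.3, 36.6 and 35.8 FPKM without and 33.8, 33.6 and 33.2 FPKM with MCC950, where 10.8% of genes were lower in every MCC950 library. Its log2 difference of −0.18 (interval −0.35 to −0.01) had an adjusted p of 0.41 (limma). Cyp4a10 had the largest difference upward, at 54.0, 39.9 and 44.6 FPKM without and 51.2, 49.6 and 55.2 FPKM with the inhibitor (log2 difference 0.18, interval −0.08 to 0.44, adjusted p = 0.51, limma). The order of levels in these cells was Cyp3a11, Cyp4a14 and Cyp4a10 first, and Cyp4a12a, Cyp4a31 and Cyp4a12b last, with Cyp4a12a at 12 ± 3.55 FPKM without the inhibitor. Macrophage and leukocyte genes summed to 28.2 to 36.0 FPKM over these 6 libraries and stellate cell genes to 0.770 to 2.56 FPKM, with Col1a1 and Acta2 at 0 in all 6.

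**Figure D5:**
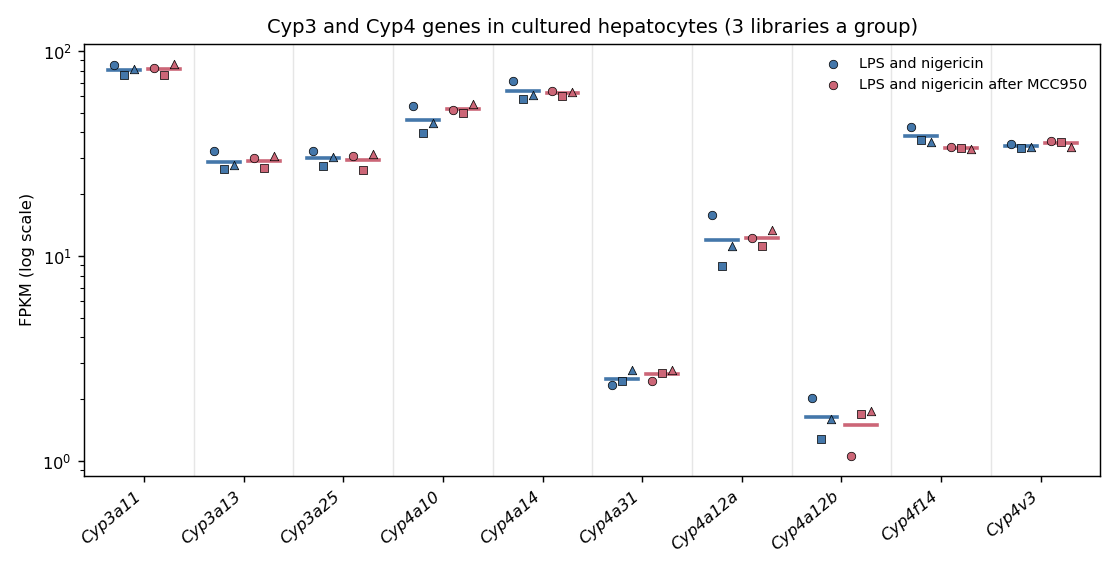
FPKM of the 10 genes in cultured hepatocytes on a log axis; points are libraries (circle, square and triangle are replicates 1, 2 and 3), bars are group means, and colours are the 2 treatments. The treatments overlap for 9 genes, and for Cyp4f14 the MCC950 libraries (33.2 to 33.8 FPKM) lie below the others (35.8 to 42.3 FPKM).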

How the data were processed

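RNA was extracted with TRIzol and sequenced, per the labels' protocols. HISAT2 2.2.1, featureCounts 1.5.0-p3 and the build mm10 appear in the submitters' processing notes; strand and RNA selection are not stated in the sources used here. The authors deposited 3 tables: raw counts and FPKM for TAA, per the file headers, and FPKM with gene lengths for CCl4 and hepatocytes, with no statement of how they were scaled. Multiplying each FPKM by the gene's length and dividing by the value of 1 read in that library gave whole reads for 100% of values (within 0.05).

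The FPKM tables were fitted in limma 3.58.1 after log2(FPKM + 1), keeping genes whose mean reached 1 FPKM and letting the prior variance follow the level (the CCl4 table's 3 groups in 1 fit). Such fold changes understate the change of low genes. TAA counts were tested as deposited with edgeR 4.0.16 (quasi-likelihood, TMM, filterByExpr); R was 4.3.3. A gene was called at a Benjamini-Hochberg adjusted p under 0.05 over all genes of the table; tests were two-sided. Sums of near-identical copies were compared by exact permutation. The tests were checked on simulated data. The simulated FPKM libraries shared a common scale, so that check does not cover the scale difference between the groups of the CCl4 table.

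The members and gene lists were chosen with earlier results of these data known. All 10 members are named; other lists give counts and at most 4 genes by smallest adjusted p in CCl4 against oil, with Por, Ppara, Nr1i2 and Nr1i3. Cyp3a44 is named as one of the other family genes. Replicate numbers pair libraries here where every same-numbered pair deviates together with a correlation over 0.1. The data alone put CCl4 against oil (0.23, 0.32 and 0.52) and Sting (0.19, 0.18 and 0.12) in that class, and no other comparison. No label gives a pairing. Some differently numbered libraries of CCl4 against oil also exceeded 0.1 (0.12 and 0.17), so the rule does not establish that libraries were paired. Alternatives were the pseudocount, filter, scaling, trend, replicate block, other tools (DESeq2 1.42.0 among them) and each library left out; leaving out libraries and rescaling for the sums were chosen after seeing the data.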

Additional observations from a re-analysis of the deposited data

How the results depend on the processing

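Counts of called genes depended on scaling, filter, tool and, for Nlrp3, on single libraries. For CCl4 against oil, higher genes numbered 363 with a filter at 5 FPKM (where Cyp4a31 was not tested), 1629 with equal sums and 1969 with edgeR on recovered reads; lower genes numbered 263 with equal sums. Members called higher were 0 with no filter, a filter at 5 FPKM, no trend or only the 2 groups compared. For the libraries labelled Sting knockout against oil, higher genes were 349 with a filter at 5 FPKM and 1702 with edgeR on recovered reads, lower genes 292 with equal sums, and 1 member (Cyp4a31) was higher with only the 2 groups compared. With no filter, 2 genes were lower in the Sting comparison, and 1 higher and 1 lower with MCC950.

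For Nlrp3, higher genes were 1 with RLE factors, 1137 with no filter, 1986 with DESeq2 and 2426 with limma on FPKM, and lower genes 0, 456, 1672 and 216. Members higher were 0, 3, 3 and 5, and 1 member (Cyp3a25) was lower with DESeq2. The Nlrp3 libraries did not meet the rule for pairing by replicate number. With these numbers as a block the fit gave 2 higher and 0 lower genes and 0 members. In the 2 comparisons that met the rule, the block gave 1182 higher and 1045 lower genes for CCl4 against oil and 0 and 0 for Sting. Of member calls it changed only that of Cyp4f14.

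Leaving out 1 library in turn gave 674 to 1274 higher and 262 to 1198 lower genes for CCl4 against oil, with 0 to 1 members higher and 3 to 5 lower; 543 to 1030, 238 to 827, 0 to 1 and 3 to 5 for the libraries labelled Sting knockout against oil; 0 to 3570, 0 to 3985, 0 to 4 and 0 to 1 for Nlrp3; and 0 to 1 lower genes for Sting and for MCC950.

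Directions turned only in differences that were not called. With equal sums Cyp3a13 was at 0.14 on the log2 scale for CCl4 against oil, and Cyp4a10 at −0.0085 and Cyp4f14 at −0.0894 for Sting; Cyp4a10 was at −0.21 there with edgeR on recovered reads, and Cyp4a12a at 0.0582 for Nlrp3 with limma on FPKM. Over left-out libraries the log2 ranges that crossed 0 were −0.53 to 0.0111 for Cyp3a13 (CCl4 against oil) and −1.45 to 0.24 for Cyp4a14 (labelled Sting knockout against oil). For Sting they were −0.36 to 0.81 (Cyp3a11), −0.43 to 0.0081 (Cyp3a13), −0.40 to 0.0948 (Cyp3a25), −1.09 to 0.93 (Cyp4a10), −0.10 to 2.29 (Cyp4a14), −0.16 to 0.24 (Cyp4f14) and −0.16 to 0.0208 (Cyp4v3). For MCC950 they were −0.0279 to 0.0653 (Cyp3a11), −0.0363 to 0.10 (Cyp3a13), −0.10 to 0.0464 (Cyp3a25), −0.12 to 0.26 (Cyp4a12a), −0.18 to 0.0537 (Cyp4a12b) and −0.0843 to 0.0622 (Cyp4a14). For Nlrp3 they were −0.93 to 0.26 (Cyp4a12a) and −0.21 to 1.29 (Cyp4a12b). Differences in summed FPKM of the Cyp4a12 pair ran from −2.12 to 7.94 (Sting), −1.59 to 2.25 (MCC950) and −1.17 to 6.03 (Nlrp3), and of Cyp4a10, Cyp4a31 and Cyp4a32 from −17.5 to 2.44 (Sting). The cause of these changes was not tested. With 3 libraries a group, and from 3 to 5 reads of Cyp4a12b in 2 CCl4 libraries, depth limits the lowest levels.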
